A study of Mus with 16 samples.

Results

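The 10 genes described here are classical histone deacetylases of the mouse, taken from the count table by a given list of identifiers: *Hdac1*, *Hdac2*, *Hdac3*, and *Hdac8* of class I, *Hdac4*, *Hdac5*, *Hdac7*, and *Hdac9* of class IIa, *Hdac6* of class IIb, and *Hdac11* of class IV. *Hdac10*, also of class IIb, is not analysed here. They are 10 of 54219 genes in the table, and all 10 were among the 17866 genes with enough counts to be tested. The family was selected on a measured value, because *Hdac4* was already known to be among the few genes lower in *Kdm5c*-HET females. The comparison of *Kdm5c*-HET with WT females is therefore a description throughout. Counts of members under the threshold are printed for it beside the background and are read as no test. The comparison of *Kdm5c*-KO with WT males sets other animals against each other and is the tested one, with the spread estimated over all 16 animals, females included.

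The study performed bulk mRNA-seq of micro-dissected forebrain (cortex and hippocampus) from mice at postnatal day 6. Within each sex it compared mutant with WT animals of that age, 4 *Kdm5c*-KO with 4 WT males, and 4 *Kdm5c*-HET with 4 WT females. The mutant allele lacks 2 exons of *Kdm5c*, an X-linked gene for a histone demethylase, after Cre-mediated deletion, so *Kdm5c*-KO males carry no intact copy and *Kdm5c*-HET females carry 1. All animals were of a mixed C57BL/6J and 129S1/SvImJ background and came from 3 litters, and no litter is given for an animal.

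Histone deacetylases remove acetyl groups from lysines, on histone tails and on other proteins, and loss of histone acetylation is generally associated with lower transcription. HDAC1 and HDAC2 are the catalytic subunits of the nuclear Sin3, NuRD, and CoREST complexes, and HDAC3 is that of the NCoR and SMRT complexes. Class IIa enzymes have little catalytic activity of their own. They move between cytoplasm and nucleus after phosphorylation and repress MEF2 transcription factors. In the brain the family is best known for roles in neuronal differentiation, synapse maturation, and memory.

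Each gene's level is given in CPM, its counts scaled to a library of fixed total size after TMM adjustment of the totals, which ranged from 21513783 to 30063352 counts per animal. These values are not divided by transcript length, so they are compared between animals and not between genes. Of 40 cell type markers listed, 6 could be matched to an identifier, and these 6 had been selected by the study as changed in these same samples. Among them *Rbfox3*, a marker of neurons, ranged from 216 to 275 CPM, and *Emx1*, a transcription factor of the dorsal forebrain, from 27.4 to 41.0 CPM, so both were found in every animal. In bulk tissue, fewer cells of a type and less RNA per cell cannot be told apart. Each sample label also carries a letter, D or E, that the sources used here do not explain. Among males E is carried by 1 WT and 2 *Kdm5c*-KO animals, and among females by 2 WT and 3 *Kdm5c*-HET animals.

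The class IIa gene *Hdac9* (ENSMUSG00000004698), whose product binds MEF2 and opposes the genes that MEF2 activates, was upregulated in *Kdm5c*-KO males. *Hdac9* lies at chr12:34047580-34917095 (mm10), and 6 other annotated genes, all noncoding or pseudogenes, overlap it. Its level was 66.7, 68.5, 69.2, and 72.1 CPM in the 4 *Kdm5c*-KO males and 57.5, 59.5, 65.3, and 65.4 CPM in the 4 WT males. All 4 *Kdm5c*-KO males were thus above all 4 WT males, beside 8.91% of all genes tested whose ranges separated in either direction. The means were 69.2 ± 2.25 and 61.9 ± 4.04 CPM (SD, n = 4 each), and *Hdac9* rose by 0.16 on the log2 scale (standard error 0.049), a fold change of 1.12 (adjusted p = 0.0875, edgeR's quasi-likelihood test over all genes). The threshold throughout was an adjusted p of 0.1.

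*Hdac9* was 1 of 10 members called in males, beside 5.24% of all genes tested. That share, 937 genes, ran from 555 to 1129 genes when single animals were left out, and was lowest without WT male 5D (555), *Kdm5c*-KO male 2E (561), WT male 2D (571), or *Kdm5c*-KO male 3E (593). Nothing about the family as a whole is read from 1 gene in 10 at this background. The call also rests on single animals. It was retained in 4 of 16 fits that each left out 1 animal, namely those without WT female 1D, WT female 5E, WT male 5D, or WT male 7D, and was lost without any of the other 12. The adjusted p in these fits ran from 0.0751 to 0.270, and the log2 fold change from 0.13 to 0.19. The call was also lost in a fit of only the 8 males (adjusted p = 0.166, log2 fold change 0.16) and without the filter on low counts (adjusted p = 0.130). When the letter entered the fit as a covariate, the adjusted p was 0.0488. Within letter D the difference was 0.17 (2 against 3 animals), and within letter E it was 0.19 (2 against 1).

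In the females, *Hdac9* was 64.03, 65.7, 68.7, and 70.2 CPM in WT and 65.6, 67.004, 67.95, and 70.1 CPM in *Kdm5c*-HET. These ranges lie almost on top of each other, and the log2 difference was 0.01 (standard error 0.049). In order of level, WT males were lowest, followed by WT females, *Kdm5c*-HET females, and *Kdm5c*-KO males, and every neighbouring pair in this order overlapped. The *Hdac9* response to genotype was 0.15 larger in males than in females (standard error 0.069), a value that contains the female comparison and is given without a test.

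**Figure D1:**
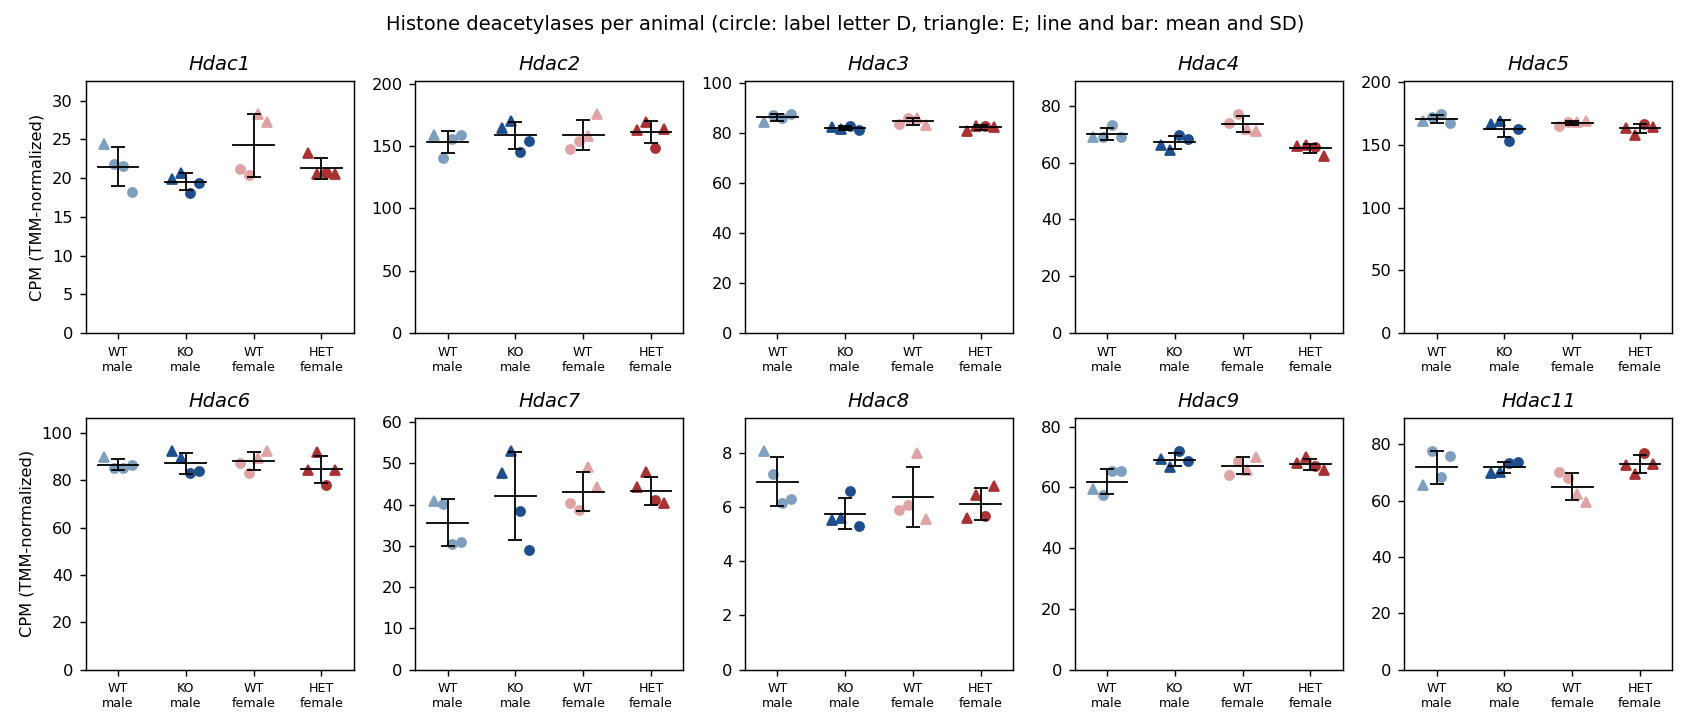
Level of each histone deacetylase in every animal, as TMM-normalized CPM on a linear axis from 0, by group. Circles are animals with letter D and triangles with letter E, and the line and bar are the mean and SD of 4 animals. *Hdac9* is higher in all 4 *Kdm5c*-KO males than in all 4 WT males. *Hdac4* is lower in all 4 *Kdm5c*-HET females than in all 4 WT females. The ranges of *Hdac3* separate by genotype in both sexes. Such separation held for 8.91% of all genes tested in males and 4.47% in females. *Hdac7* spreads most relative to its level, from 29.0 to 53.1 CPM.

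*Hdac4* (ENSMUSG00000026313), the class IIa member for which the family was chosen, encodes a protein that is abundant in neurons and shuttles between cytoplasm and nucleus with synaptic activity. It lies at chr1:91928779-92195702 (mm10), with 1 overlapping noncoding gene. It was 62.5, 65.4, 65.9, and 66.3 CPM in *Kdm5c*-HET females and 71.0, 71.8, 74.1, and 77.2 CPM in WT females. The groups did not overlap, which held for 4.47% of all genes tested in females. The means were 64.99 ± 1.72 and 73.5 ± 2.76 CPM (SD, n = 4 each), a log2 difference of -0.18 (standard error 0.043) or 0.884-fold. This is the contrast on which *Hdac4* was selected, and the value supports nothing further. *Hdac4* was the only member under the threshold there (1 of 10, beside 0.509% of all genes tested), and nothing is read from that count. It was under it in 2 of the 16 fits without 1 animal, and the 0.509%, 91 genes, fell to 50 genes without WT female 3D, 54 without *Kdm5c*-HET female 8E, and 59 without *Kdm5c*-HET female 6E.

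In males, which took no part in that choice, *Hdac4* was 64.3, 66.1, 68.3, and 69.8 CPM in *Kdm5c*-KO and 68.94, 69.03, 69.05, and 73.3 CPM in WT. The ranges overlapped, through a single *Kdm5c*-KO animal that exceeded 3 WT animals. The means were 67.1 ± 2.39 and 70.1 ± 2.16 CPM (SD, n = 4 each), and the log2 difference of -0.06 (standard error 0.043) was in the direction seen in females but did not pass the test (adjusted p = 0.507, edgeR). WT females had a mean of 73.5 and WT males of 70.1 CPM, with overlapping ranges.

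The ratio of *Hdac9* to *Hdac4* counts within an animal needs no scaling between libraries. It was computed after the values of both genes had been seen and is given as a description, with no test. In males it was 1.003, 1.03, 1.04, and 1.05 in *Kdm5c*-KO and 0.833, 0.862, 0.890, and 0.949 in WT. These ranges did not overlap, and the *Kdm5c*-KO mean exceeded the WT mean by 0.22 on the log2 scale. In females the ratio largely restates the *Hdac4* values that chose the family, since *Hdac9* differed there by 0.01 and *Hdac4* by -0.18, and it supports nothing about a pattern shared by the sexes. Because the counts are not divided by length, the ratio does not say which of the 2 transcripts is more abundant.

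The remaining class IIa members did not pass the test in males. *Hdac5* (ENSMUSG00000008855), a close relative of *Hdac4* that also represses MEF2 targets, lies at chr11:102195747-102230172 (mm10) with 1 annotated microRNA gene inside it. Its mean was 163 ± 7.05 CPM in *Kdm5c*-KO and 171 ± 3.29 CPM in WT males (SD, n = 4 each), with a log2 difference of -0.07 (standard error 0.036, adjusted p = 0.375, edgeR). In females the means were 163 and 168 CPM, a difference of -0.04 (standard error 0.036). *Hdac5* varied little, and its highest animal was 1.14 times its lowest.

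*Hdac7* (ENSMUSG00000022475), known for its part in endothelial and lymphoid cells, was the most variable member. It lies at chr15:97792661-97844502 (mm10), where the end of *Slc48a1* and a noncoding gene overlap it. It was 29.0, 38.5, 47.7, and 53.1 CPM in *Kdm5c*-KO males and 30.5, 31.0, 40.3, and 40.8 CPM in WT males. The highest 2 *Kdm5c*-KO values and the highest WT value came from animals with letter E. The log2 difference of 0.24 (standard error 0.139) did not pass the test (adjusted p = 0.409, edgeR). It became a call without *Kdm5c*-KO male 6D, the lowest animal (adjusted p = 0.0739, log2 difference 0.39), and it shrank to 0.11 without *Kdm5c*-KO male 3E, the highest. It was -0.01 within letter D and 0.30 within letter E.

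Among the class I members, *Hdac3* (ENSMUSG00000024454), the catalytic subunit of the NCoR and SMRT corepressor complexes, had ranges that separated by genotype in both sexes but a very small difference. It lies at chr18:37936971-37955015 (mm10). It was 81.4, 81.5, 82.5, and 82.9 CPM in *Kdm5c*-KO and 84.5, 86.1, 87.2, and 87.7 CPM in WT males. The log2 difference was -0.07 (standard error 0.034, unadjusted p = 0.0431, adjusted p = 0.286, edgeR), or 0.950-fold, which did not pass the test. It was 80.7, 82.6, 82.9, and 83.0 CPM in *Kdm5c*-HET and 83.3, 83.7, 85.8, and 86.0 CPM in WT females, a log2 difference of -0.04 (standard error 0.034).

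*Hdac3* and *Hdac9* were the 2 members whose ranges did not overlap in males, beside 8.91% of all genes tested. In females these were *Hdac3* and *Hdac4*, beside 4.47%. The spread of *Hdac3* between animals of a group, a coefficient of variation of 0.864 to 1.65%, was below what counting alone gives. Averaged over the animals of each group, with 1831 to 2511 counts per animal, counting gives 2.12 to 2.22%.

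*Hdac1* and *Hdac2* encode near-interchangeable subunits of the same nuclear complexes. *Hdac1* (ENSMUSG00000028800, chr4:129516104-129542646, mm10) was 18.1, 19.4, 19.9, and 20.7 CPM in *Kdm5c*-KO and 18.2, 21.6, 21.8, and 24.4 CPM in WT males. The ranges overlapped, and the log2 difference of -0.14 (standard error 0.102) did not pass the test (adjusted p = 0.548, edgeR). In females *Hdac1* was 20.5, 20.6, 20.6, and 23.3 CPM in *Kdm5c*-HET and 20.4, 21.2, 27.2, and 28.3 CPM in WT, a log2 difference of -0.19 (standard error 0.101). The 2 high WT females both carry letter E, as do 3 of the 4 *Kdm5c*-HET females. With the letter in the fit the female difference was -0.23 and was not under the threshold. It was -0.01 within letter D (1 *Kdm5c*-HET against 2 WT) and -0.37 within letter E (3 against 2). An *Hdac1* pseudogene exists elsewhere in the genome, so reads that match both would not have been counted as unique.

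*Hdac2* (ENSMUSG00000019777, chr10:36974297-37001889, mm10) had means of 158 ± 10.9 CPM in *Kdm5c*-KO and 153 ± 8.92 CPM in WT males (SD, n = 4 each). The log2 difference was 0.05 (standard error 0.060, adjusted p = 0.762, edgeR). In females the means were 161 and 159 CPM, a log2 difference of 0.02.

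*Hdac8* (ENSMUSG00000067567), an X-linked class I member that deacetylates the cohesin subunit SMC3, had the fewest reads, 127 to 193 counts per animal. It lies at chrX:102284638-102505381 (mm10), 49.7 megabases before *Kdm5c*, and 1 noncoding gene overlaps it. It was 5.30, 5.54, 5.61, and 6.59 CPM in *Kdm5c*-KO and 6.13, 6.28, 7.21, and 8.08 CPM in WT males. A single *Kdm5c*-KO animal reached into the WT range. The log2 difference of -0.26 (standard error 0.129) was the largest decrease among the members but did not pass the test (adjusted p = 0.317, edgeR). At this depth counting error alone gives a coefficient of variation of 7.68 to 8.26%, averaged over the animals of each group. In females the difference was -0.06 (standard error 0.129).

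*Hdac6* (ENSMUSG00000031161), also X-linked, encodes the cytoplasmic class IIb enzyme that deacetylates tubulin. It lies at chrX:7930116-7948047 (mm10), 144.3 megabases before *Kdm5c*. Its mean was 87.2 ± 4.30 CPM in *Kdm5c*-KO and 86.7 ± 2.19 CPM in WT males (SD, n = 4 each), a log2 difference of 0.01 (standard error 0.050, adjusted p = 0.956, edgeR). In females the means were 84.7 and 88.2 CPM, a difference of -0.06 (standard error 0.050).

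*Hdac11* (ENSMUSG00000034245), the sole class IV member, is expressed in brain and skeletal muscle. It lies at chr6:91156670-91174692 (mm10). It averaged 71.9 ± 2.01 CPM in *Kdm5c*-KO and 71.8 ± 5.89 CPM in WT males (SD, n = 4 each), with no measurable difference (log2 0.00, standard error 0.059, adjusted p = 0.997, edgeR). In females it was 69.3, 72.8, 73.1, and 77.1 CPM in *Kdm5c*-HET and 59.6, 62.2, 67.97, and 70.1 CPM in WT, so that 3 of 4 *Kdm5c*-HET animals exceeded all WT animals. This log2 difference of 0.17 (standard error 0.059) is given as a description. It was not under the threshold. When the letter entered the fit, the difference was 0.20 and came under the threshold, which is read as no test. The male response of *Hdac11* was 0.17 lower than the female one (standard error 0.084), again without a test.

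**Figure D2:**
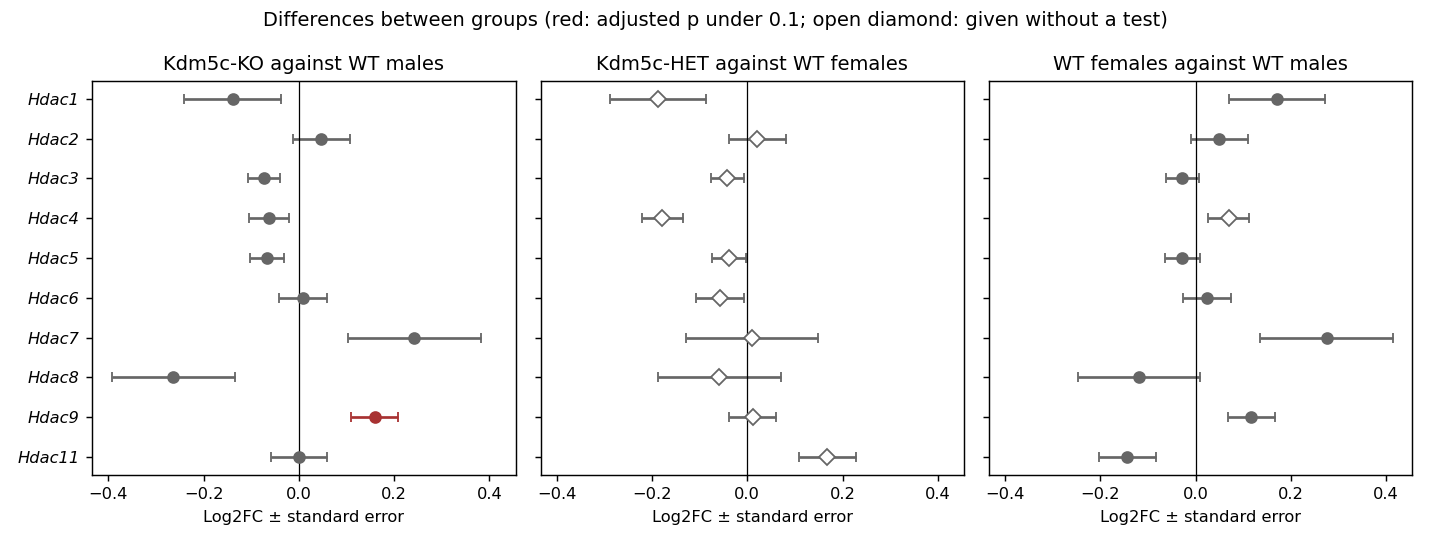
Log2 fold change of each member with its standard error for *Kdm5c*-KO against WT males (left), *Kdm5c*-HET against WT females (middle), and WT females against WT males (right). Red marks a tested member with an adjusted p under 0.1, and open diamonds mark values given without a test, which are those of the comparison that singled out *Hdac4* and *Hdac4* itself in WT animals. *Hdac9* in males, at 0.16, is the only red point.

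As a family, the members did not move together. In males 5 of 10 had a positive log2 fold change, and the median over the 10 was -0.03, beside -0.01 over all genes tested. The median size of the change regardless of sign was 0.07 for the members and 0.10 for all genes. These medians were not matched for level, so they do not show that the family is more stable. In females 4 of 10 were positive, with a median of -0.04. For the difference of responses between males and females, 0 of 10 members were under the threshold by edgeR and 0 by DESeq2. Beside this stood 0.0392% of all genes in edgeR (7 genes, against 26 in DESeq2). That comparison contains the female animals that chose *Hdac4*, so it is a description too, and the counts are read as no test.

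WT females and WT males were compared because 2 members are X-linked. No member was called (0 of 10 by edgeR and 0 by DESeq2, beside 5% of all genes in edgeR), and 2 members, *Hdac9* and *Hdac11*, had an unadjusted p under 0.05, beside 18.1% of all genes. *Hdac4* is among the 10 counted, but its WT female values took part in the choice of the family, so it is read as no test. The 5%, 894 genes, rests on single animals, with 69 genes without WT female 5E, 73 without WT male 5D, 319 without WT male 7D, and 436 without WT female 4E, and DESeq2 called 1517. The X-linked *Hdac6* was 88.2 ± 3.89 CPM in WT females and 86.7 ± 2.19 CPM in WT males (SD, n = 4 each), a log2 difference of 0.02 (standard error 0.050, adjusted p = 0.850, edgeR). The X-linked *Hdac8* was 6.37 ± 1.11 and 6.92 ± 0.906 CPM (SD, n = 4 each), a log2 difference of -0.12 (standard error 0.128, adjusted p = 0.671, edgeR). The *Hdac8* value ran from -0.24 without WT female 4E to -0.04 without WT male 1E. A higher level of either X-linked member in WT females was not detected with these animals and this depth.

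In the same comparison *Hdac9* was 0.12 higher in WT females (standard error 0.049, adjusted p = 0.211, edgeR) and *Hdac11* differed by -0.14 (standard error 0.059, adjusted p = 0.204, edgeR). *Hdac7* differed by 0.28 (standard error 0.139, adjusted p = 0.306, edgeR) and *Hdac1* by 0.17 (standard error 0.101, adjusted p = 0.389, edgeR). The ranges of WT females and WT males did not separate for any member, beside 10.6% of all genes whose ranges did. This comparison shares its WT animals with the genotype comparisons, so their values are not independent.

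The members were also compared by the letter of the sample label, a comparison of 8 with 8 animals added after the data had been seen. Between animals with letter E and letter D, with the group in the fit, 5 of 10 members were called, beside 23.6% of all genes tested. *Hdac1*, *Hdac2*, *Hdac6*, and *Hdac7* were higher with letter E and *Hdac11* was lower. In each of these 5 genes the mean of the E animals lay on the same side of the D animals in all 4 groups. The same held for *Hdac3* and *Hdac4*, which were not called and whose E means were lower in all 4 groups. WT males had only 1 E animal and *Kdm5c*-HET females only 1 D animal, so these means can rest on 1 animal. For *Hdac1* in *Kdm5c*-HET females, 6E (23.3 CPM) was the only E animal above the D animal (20.6 CPM). In both sexes, E is carried by 1 more mutant than WT animal. All 5 calls were retained in each of the 16 fits that left out 1 animal.

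*Hdac7* showed the largest of these differences. It was 29.0 to 41.2 CPM in the 8 animals with letter D and 40.3 to 53.1 CPM in the 8 with letter E, so the ranges overlapped only at their ends. *Hdac7* rose by 0.31 (standard error 0.074, adjusted p = 0.00488, edgeR). *Hdac1* rose by 0.22, from a mean of 20.2 to 23.1 CPM (standard error 0.058, adjusted p = 0.0101, edgeR). *Hdac2* was 140 to 159 CPM with D and 158 to 176 CPM with E and rose by 0.14 (standard error 0.031, adjusted p = 0.00377, edgeR).

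*Hdac6* rose by 0.11, from 84.1 to 89.3 CPM (standard error 0.028, adjusted p = 0.00880, edgeR). *Hdac11* fell by 0.13, from 73.0 to 67.9 CPM (standard error 0.033, adjusted p = 0.00719, edgeR). The members singled out by genotype were not called here, with *Hdac9* at -0.02 (standard error 0.036, adjusted p = 0.811, edgeR) and *Hdac4* at -0.06 (standard error 0.029, adjusted p = 0.199, edgeR). *Hdac3*, *Hdac5*, and *Hdac8* were not called either, with differences of -0.01, 0.02, and 0.13.

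**Figure D3:**
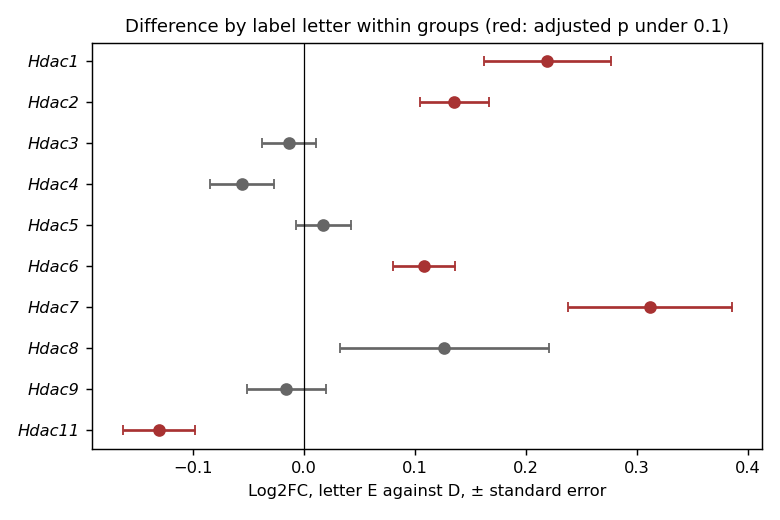
Log2 fold change of each member between the 8 animals with label letter E and the 8 with letter D, with its standard error, from a fit that also holds the group. Red marks an adjusted p under 0.1. *Hdac1*, *Hdac2*, *Hdac6*, and *Hdac7* lie to the right of 0 and *Hdac11* to the left, and *Hdac4* and *Hdac9* are not called.

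Some markers of cell types differed by genotype in males, some by letter, and some between the sexes in WT animals. The 6 matched markers had been selected by the study as changed in these samples, so nothing is read from counts of them. Of the 6, 4 were lower in *Kdm5c*-KO males and passed the test and none was higher, beside 5.24% of all genes called. These were *Rbfox3* (-0.19, adjusted p = 0.0642), *Emx1* (-0.23, adjusted p = 0.0948), the choroid plexus gene *Ttr*, and the hemoglobin gene *Hba-a1* (-0.59, adjusted p = 0.00131), all by edgeR. *Hba-a1* has a near-identical copy, *Hba-a2*, and its count is uncertain. *Ttr* ranged from 0.277 to 202 CPM in WT males and from 1.59 to 2.21 CPM in *Kdm5c*-KO males. In females none of the 6 passed between genotypes (adjusted p from 0.908 to 0.999, edgeR). Between WT animals, *Emx1* (-0.24, adjusted p = 0.0823) and *Hba-a1* (-0.40, adjusted p = 0.0417, edgeR) were lower in females. The other matched markers did not pass there, beside 5% of all genes called. WT males had the highest mean of both genes among the groups, 36.8 CPM for *Emx1* and 51.0 CPM for *Hba-a1*. With letter E, 3 of the 6 were lower and passed the test, beside 23.6% of all genes called. They were *Rbfox3* (-0.12), the astrocyte water channel *Aqp4* (-0.20), and *Ttr*, and the other 3 did not pass. The lower *Ttr* rests on 4 WT animals with letter D at 181 to 202 CPM. In *Kdm5c*-HET females *Ttr* went the other way, with 0.669 CPM in the D animal and 3.62, 57.7, and 84.5 CPM in the E animals, and in *Kdm5c*-KO males it was low with either letter. The part of cell composition in the *Hdac9* differences, by genotype and between the sexes, and in the differences by letter was not tested.

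The members differed widely in how much they varied between animals of 1 group. The residual SD on the log2 scale ran from 0.020 for *Hdac3* to 0.243 for *Hdac7*, with a median of 0.079 over the members and 0.143 over all genes tested. The medians were again not matched for level. Over all 16 animals, groups included, the highest exceeded the lowest 1.83-fold for *Hdac7*, 1.56-fold for *Hdac1*, and 1.52-fold for *Hdac8*, against 1.09-fold for *Hdac3*. *Hdac3*, *Hdac5*, and *Hdac4* had the 3 lowest residual SDs. The members called by letter included *Hdac7* and *Hdac1*, 2 of the 3 with the highest. The residual SD was taken around group means without the letter, so a difference by letter adds to it. Nothing is read from this match.

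Genes of the wider acetylation machinery could be followed only where an identifier was paired with a symbol, which held for 3 of the 84 listed. These 3 had been selected by the study on these samples and are no independent evidence. *Camta2*, a transcriptional activator that class IIa deacetylases repress, was 141 to 176 CPM in *Kdm5c*-KO and 184 to 213 CPM in WT males and fell by 0.35 (standard error 0.086, adjusted p = 0.0252, edgeR). It was also lower with letter E (-0.25, adjusted p = 5.85e-06, edgeR). *Chd4*, the ATPase of the NuRD complex, differed by 0.11 in males (adjusted p = 0.135), and *Camk1*, a kinase that phosphorylates class IIa deacetylases, by 0.14 (adjusted p = 0.123), and neither passed the test. In males the count was thus 1 of 3 down and 0 up, beside 5.24% of all genes called.

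The genes whose level followed *Hdac4* most closely were sought among 949 tested genes with a symbol, nearly all of which the study had listed as changed. Over the 16 animals these were *Il1rapl1* (Pearson's r = 0.84), *Slc17a8* (0.80), *Glp2r* (0.78), *Rc3h2* (0.72), and *Cadps2* (0.71), and these values include the groups that differ in *Hdac4*. Within the 8 males they were *Chmp6* (0.95), *Selenow* (0.92), *Enpp6* (0.92), *Ppp1r1a* (0.91), and *Vip* (0.91), so no gene was in both sets. With so few animals, which also share groups and letters, these correlations are descriptions only. Among the members, *Hdac3* was most like *Hdac4* (r = 0.57 over all 16 animals and 0.57 over the males), and *Hdac9* was not (r = -0.06 over the 16).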

How the data were processed

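Poly(A)-selected RNA of 16 forebrains was sequenced with a directional kit as paired reads. Per the study's methods, STAR aligned the reads to mm10, and reads with several matches or marked as duplicates were discarded. The authors deposited raw counts per Ensembl gene from featureCounts, and the submitters' processing notes name STAR 2.5.3a and Subread 1.5.0. The strand setting is not given in the sources used here, so overlapping and antisense genes may share reads. The study calls animals, 4 per group, its replicates. Replicate pairs differed by more than sampling noise (2.78 to 13.9 chi-square units per gene).

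Counts were tested with edgeR 4.0.16 in R 4.3.3, with filterByExpr, TMM scaling, 1 mean per group over all 16 animals, quasi-likelihood tests, and Benjamini-Hochberg adjustment over all 17866 genes at 0.1. The steps were tested on simulated data with added changes larger than that of *Hdac9* and without a letter difference. That test does not cover changes as small as that of *Hdac9*. DESeq2 1.42.0, its size factors, other filters, the 8 animals of a contrast, the label letter, and leaving out each animal were alternatives. No column was without a sample. The members and gene lists were chosen with earlier results of these data known. The text names all 10 members, listed pathway genes called in males (*Chd4* and *Camk1* were added after their values were seen), and the 5 genes with a symbol and a mean of at least 1 CPM most correlated with *Hdac4*. Symbols came from the study's gene lists (1022 identifiers), and other identifiers, that of *Kdm5c* included, were not matched, so *Kdm5c* is not analysed here. 1 listed cell type marker is not reported here. Coordinates are RefSeq's for mm10 by symbol.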

Additional observations from a re-analysis of the deposited data

Results flagged for a closer look

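Of 40 sets of 4 animals (10 members in 4 groups), 2 held an animal far from the other 3, and chance alone gives about 1 such set in 20. *Hdac1* was 23.3 CPM in *Kdm5c*-HET female 6E and 20.5 to 20.6 CPM in the other 3 *Kdm5c*-HET females. *Hdac4* was 73.3 CPM in WT male 5D and 68.94 to 69.05 CPM in the other 3 WT males. Without WT male 5D the *Hdac4* difference in males was -0.04 in place of -0.06, and it was not called in either fit.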

How the results depend on the processing

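In males, the count of 1 called member became 0 at an adjusted p of 0.05 and 0 in a fit of only the 8 male animals, and it ran from 0 to 1 when single animals were left out. Without a filter on low counts it was again 1, but the gene was *Hdac7* in place of *Hdac9*. In females, where the count of 1 describes the comparison that chose the family and tests nothing, it became 0 at 0.05, 0 without the filter, 0 with only the 8 female animals, and 2 with the letter as a covariate (*Hdac4* and *Hdac11*), and it ran from 0 to 1 without single animals. For the sexes in WT the count of 0 became 1 without the filter (*Hdac7*). The 5 calls by letter were the same genes in all alternatives run. *Hdac9* in males had an adjusted p of 0.0618 with DESeq2. Its log2 difference was positive in all 23 alternatives. These reuse the same animals, whose male groups did not overlap, so the constant sign is no further support. The cause of the changes in the counts of calls was not tested.

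With the letter as a covariate, 4 uncalled differences changed sign, to -0.020 for *Hdac6* in males, -0.013 for *Hdac2* and -0.064 for *Hdac7* in females, and -0.0032 for *Hdac6* between the sexes. Without single animals, uncalled differences near 0 also changed sign. In males these were *Hdac6* (-0.019 to 0.031) and *Hdac11* (-0.041 to 0.042). In females they were *Hdac2* (-0.014 to 0.070), *Hdac7* (-0.043 to 0.079), *Hdac8* (-0.119 to 0.066), and *Hdac9* (-0.014 to 0.029). Between the sexes they were *Hdac2* (-0.0036 to 0.080) and *Hdac6* (-0.00080 to 0.050), and for the difference of responses *Hdac1* (-0.033 to 0.128), *Hdac2* (-0.022 to 0.068), and *Hdac5* (-0.047 to 0.0036). The order of members by level per length was not run, since no transcript lengths were used here. No paired analysis was possible because the animal numbers of the groups pair no animals. Among uncalled values, *Hdac1* in males ran from -0.21 to -0.08, in females from -0.27 to -0.11, and between the sexes from 0.09 to 0.24 without single animals. *Hdac2* in males ran from 0.01 to 0.09, *Hdac4* and *Hdac5* in males each from -0.08 to -0.04, *Hdac6* in females from -0.10 to -0.02, and *Hdac8* by letter from 0.06 to 0.18. By letter, *Hdac3* ran from -0.019 to -0.0063, *Hdac5* from 0.00057 to 0.032, and *Hdac9* from -0.033 to -0.00058. With 127 to 193 counts per animal, depth limits *Hdac8* most.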
